A study of Mus musculus with 6 samples.

Results

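The 10 genes described here code for the ligands, latent-complex protein, receptors and SMAD transducers of transforming growth factor beta (TGF-β): Tgfb1, Tgfb2, Tgfb3, Ltbp1, Tgfbr1, Tgfbr2, Tgfbr3, Smad2, Smad3 and Skil. Every probe set that the platform annotation gave to 1 of these genes alone was taken, which made 20 probe sets of the 45037 tested and 10 of the 17097 genes that could be followed by name. Of these genes, 4 had 1 probe set, 2 had 2 and 4 had 3. The RNA came from the gastrocnemius, a calf muscle, of male ICR mice, bought at 7 weeks of age, whose sciatic nerves had been cut in both legs with a piece removed. The MA group ate an AIN-93G diet with 0.27% maslinic acid (MA), a triterpene of olive peel, from a week before the operation, and the control group ate that diet without MA. Both groups were denervated and sampled on day 14, so no innervated muscle enters the comparison, and each group had 3 Affymetrix mouse arrays. Nothing in the sources used here says that the arrays are separate mice, so a p-value measures the spread between arrays, which may be technical.

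TGF-β is secreted as a latent complex, in which its propeptide holds the ligand and a latent TGF-β binding protein ties both to the extracellular matrix. Once released, often by integrins, the ligand binds the type II receptor, which phosphorylates the type I receptor, and the type I receptor phosphorylates SMAD2 and SMAD3. These enter the nucleus with SMAD4 and change transcription. In skeletal muscle the pathway is known for driving fibrosis and for holding back the differentiation of myoblasts.

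Values are log2 values after robust multi-array analysis (RMA), a difference is MA minus control on that scale, and rose and fell are used only of an adjusted p under 0.05 in the limma fit over all 45037 probe sets. The arrays' medians lay between 4.266 and 4.275 and the median SD within groups was 0.0365, so that small differences passed: 42.9% of all probe sets were called, 21.6% higher and 21.4% lower in the MA group. Of 23 control probe sets for nonspecific binding, 22 reached at most 3.90, which is called background here, and the other stood at 7.24. The 18 hybridization controls, which are spiked into every sample, were all higher in the MA group, by a median of 0.17 and at most 0.35 (1.28-fold). The 8 markers of skeletal muscle fibers, the labelled tissue, were all above background, with a mean log2 value of 12.19 on every MA array and 12.10 to 12.11 on the control arrays.

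In the MA group the receptors, the transducers and Skil were lower, the latent-complex gene Ltbp1 was lower, and the ligands divided. By the brightest probe set of each gene, 8 of the 10 fell, Tgfb3 rose and Tgfb1 did not pass. Among all genes taken in the same way, 47.8% were called, 24.7% higher and 23% lower. Over all 20 probe sets, 12 fell, 2 rose and 6 did not pass, so that 70% were called, against 42.9% of all probe sets. Of the falls, 3, those of Ltbp1, Skil and Tgfbr1, were past 1.2-fold, as were 10.3% of all probe sets in either direction. At 14 of the 20 probe sets every MA array lay on the same side of every control array, against 53.9% of all probe sets. The differences ran between -0.57 and 0.25 with a median of -0.09, where the median over all probe sets was 0.003. The study drew genes of TGF-β signaling, Tgfb2 and Tgfbr1 among them, from these same arrays, so these counts are not independent evidence of their direction. Of the 20 probe sets, 17 were above background in at least 1 group, and 13 of these were called, beside 54.7% of all probe sets above background.

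**Figure D1:**
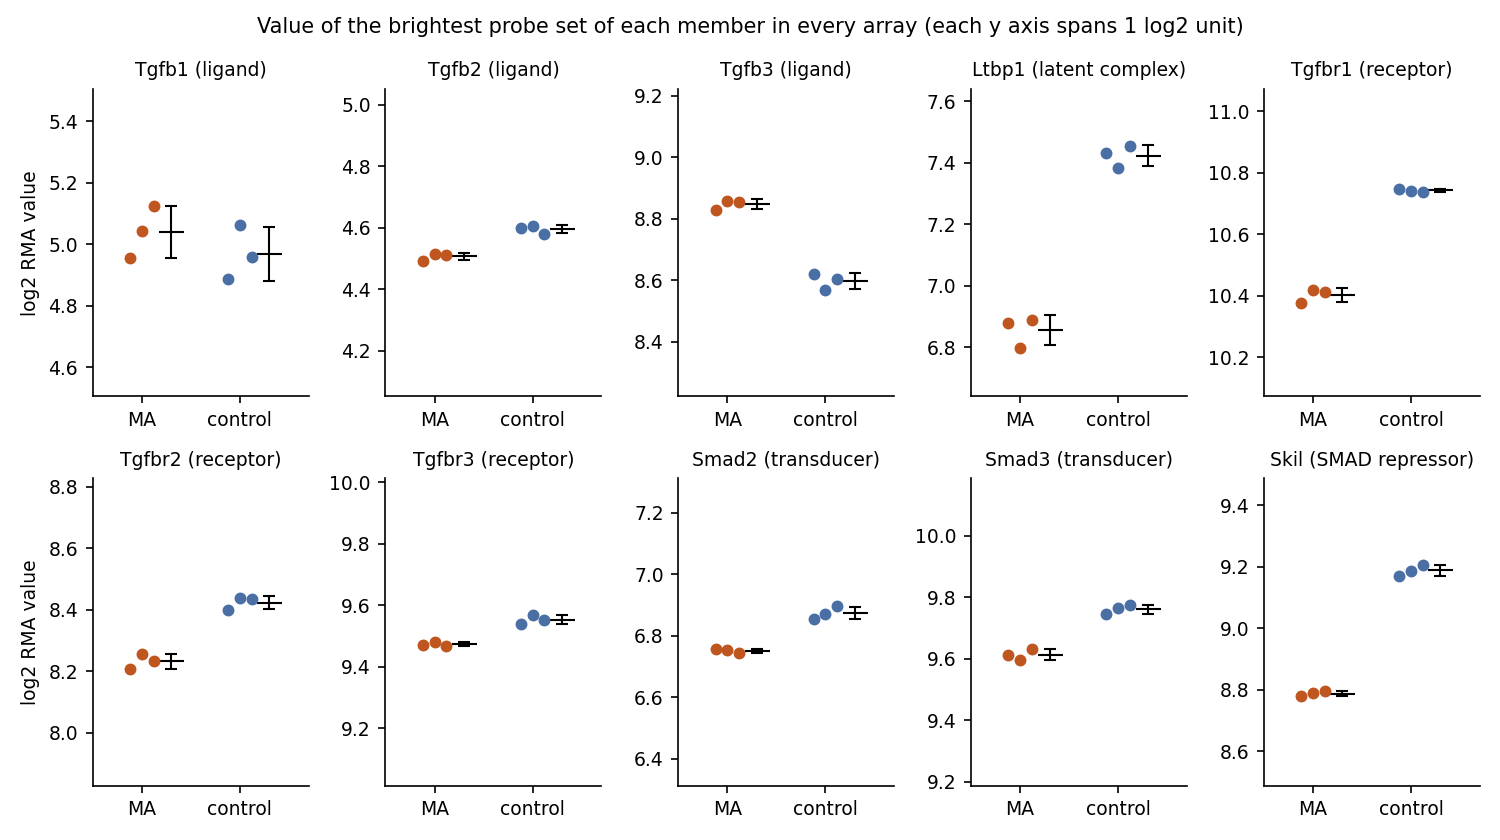
Log2 RMA value (y axis, 1 unit in every panel) of the brightest probe set of each of the 10 genes on the 3 MA arrays (orange, left) and the 3 control arrays (blue, right), with the mean and SD of each group. The arrays of the groups overlap in the Tgfb1 panel only, Tgfb3 is the panel where MA lies above, and the widest gap is that of Ltbp1.

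Among the ligands, Tgfb3 rose, Tgfb2 fell slightly and Tgfb1 did not pass. Tgfb3, an isoform known for its part in tendon, palate and wound healing, had log2 values of 8.83, 8.86 and 8.85 on the MA arrays, against 8.62, 8.57 and 8.60 on the control arrays. All 3 MA arrays were above all 3 control arrays, with an SD of 0.017 among MA arrays and 0.025 among control arrays. Its difference was 0.25 (standard error 0.023, 95% interval 0.20 to 0.30, limma adjusted p = 5.96e-05), or 1.19-fold. This rise is in the direction of the hybridization controls and smaller than the largest of theirs, and the part of whatever moved those controls was not tested.

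Tgfb2, the isoform for which betaglycan matters most in receptor binding, had 4.49, 4.52 and 4.51 on the MA arrays, against 4.60, 4.61 and 4.58 on the control arrays. The groups did not overlap, with all values within 1 log2 unit of background. The difference of -0.09 (95% interval -0.14 to -0.04, adjusted p = 0.00992) is a fall of 1.06-fold. Tgfb1, the isoform most often measured in muscle injury and fibrosis, had 4.96, 5.04 and 5.12 on the MA arrays, against 4.89, 5.06 and 4.96 on the control arrays. The groups overlapped, and the SD of 0.085 among MA arrays and 0.088 among control arrays was wider than that of Tgfb3. The 95% interval of the Tgfb1 difference, -0.05 to 0.19, includes 0 (adjusted p = 0.311). The study also measured Tgfb by quantitative PCR, its isoform not named, and reported it lower with MA in this muscle. On the arrays Tgfb1 did not pass in either direction, and which isoform the PCR measured was not tested.

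Ltbp1, the binding protein that anchors latent TGF-β in the matrix, showed the largest fall of the 10 genes. Its brightest probe set, 1448870_PM_at, had 6.88, 6.80 and 6.89 on the MA arrays, against 7.43, 7.38 and 7.45 on the control arrays. No array of either group came near the other group. It fell by 0.57 on the log2 scale (standard error 0.032, 95% interval -0.64 to -0.49, adjusted p = 2.96e-06), which is 1.48-fold. The other probe sets of Ltbp1 were under background in both groups. Of these, 1447547_PM_at had 3.24, 3.23 and 3.24 on the MA arrays, against 3.61, 3.42 and 3.33 on the control arrays, and fell by 0.21 (adjusted p = 0.0208), while 1419786_PM_at had a difference of -0.07 and did not pass (adjusted p = 0.0931). Control array 1 carried the highest of these dim values, and without it the fall of 1447547_PM_at was 0.14 (adjusted p = 0.00773). Without control array 2 the difference of 1419786_PM_at was -0.04 (adjusted p = 0.268). The fall of 1447547_PM_at did not pass without any 1 of the MA arrays (adjusted p = 0.0538 to 0.063).

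Ltbp1 has a pair of start sites in RefSeq, each given here as the 300 bases from 250 before to 50 after the start in GRCm38.p6. They are shown because this gene fell most. The 5 motifs searched, all short, were looked for on both strands: the SMAD-binding CAGAC (its reverse complement is GTCTG), the SMAD palindrome GTCTAGAC, which shares letters with both, the cAMP response element TGACGTCA, the GC box GGGCGG (reverse complement CCGCCC) and the AP-1 element TGACTCA (reverse complement TGAGTCA). Capitals mark the matches.
Ltbp1 chr17:75005279-75005578 (+): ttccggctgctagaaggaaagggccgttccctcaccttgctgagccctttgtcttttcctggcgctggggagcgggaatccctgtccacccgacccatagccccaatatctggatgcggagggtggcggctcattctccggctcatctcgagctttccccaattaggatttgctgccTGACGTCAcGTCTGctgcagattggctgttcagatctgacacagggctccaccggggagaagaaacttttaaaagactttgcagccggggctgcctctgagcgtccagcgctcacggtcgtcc
Ltbp1 chr17:75178531-75178830 (+): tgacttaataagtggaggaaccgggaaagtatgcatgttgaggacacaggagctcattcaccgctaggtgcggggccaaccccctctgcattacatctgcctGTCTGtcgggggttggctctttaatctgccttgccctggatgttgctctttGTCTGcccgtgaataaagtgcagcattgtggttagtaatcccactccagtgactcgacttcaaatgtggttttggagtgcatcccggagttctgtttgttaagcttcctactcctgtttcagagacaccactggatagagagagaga
The first window holds TGACGTCA 73 bases and GTCTG 64 bases before the start, and is 58.7% G or C. The second holds GTCTG at 148 and 97 bases before the start and is 50% G or C. Over the 32851 windows of this length in the table, 49.6% hold CAGAC or GTCTG, 1.79% TGACGTCA, 35.7% a GC box, 5.2% an AP-1 element and 0.213% the palindrome, with a median G or C content of 52.7%. A match describes the letters of the window and is not a measured binding site.

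The receptor genes fell at their brightest probe sets, by different amounts. Tgfbr1, the type I receptor kinase that phosphorylates SMAD2 and SMAD3, fell at all 3 of its probe sets. The brightest, 1420895_PM_at, had 10.37, 10.42 and 10.41 on the MA arrays, against 10.75, 10.74 and 10.74 on the control arrays. The control arrays agreed to an SD of 0.005, and every MA array lay below them. The difference was -0.34 (standard error 0.022, 95% interval -0.39 to -0.29, adjusted p = 7.16e-06), a fall of 1.27-fold. The probe set 1420894_PM_at had 5.45, 5.50 and 5.47 on the MA arrays, against 5.66, 5.78 and 5.72 on the control arrays, and fell by 0.25 (adjusted p = 5.82e-04). The dimmest, 1420893_PM_a_at, had 4.85, 4.89 and 4.79 on the MA arrays, against 5.06, 4.97 and 4.91 on the control arrays, and fell by 0.14 (adjusted p = 0.031). This last call was lost without MA array 1 or 3 or control array 1 or 2 (adjusted p = 0.0626 to 0.103). All 3 probe sets of Tgfbr1 kept the MA arrays below the control arrays without overlap.

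The windows of the start sites of Tgfbr1, the receptor gene that fell most, are given with the same motifs in capitals.
Tgfbr1 chr4:47352972-47353271 (+): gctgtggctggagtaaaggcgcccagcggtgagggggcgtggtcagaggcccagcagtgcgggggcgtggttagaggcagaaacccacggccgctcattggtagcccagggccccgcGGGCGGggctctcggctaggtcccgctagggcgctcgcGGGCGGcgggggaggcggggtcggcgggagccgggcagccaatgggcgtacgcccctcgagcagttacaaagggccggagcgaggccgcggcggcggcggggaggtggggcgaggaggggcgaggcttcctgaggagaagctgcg
Tgfbr1 chr4:47385966-47386265 (+): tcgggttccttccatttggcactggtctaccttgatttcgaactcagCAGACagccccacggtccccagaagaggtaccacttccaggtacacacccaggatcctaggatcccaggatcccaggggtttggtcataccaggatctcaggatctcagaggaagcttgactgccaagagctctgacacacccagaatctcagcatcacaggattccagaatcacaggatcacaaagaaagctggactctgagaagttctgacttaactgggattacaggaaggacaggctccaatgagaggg
The first, 74.7% G or C, holds 2 GC boxes, 133 and 95 bases before the start, and no SMAD-binding letters. The second, 52% G or C, holds CAGAC 203 bases before the start. CAGAC or GTCTG thus lies in 3 of these 4 windows and in 49.6% of all windows. The 4 were picked for the falls of their genes, so no enrichment is read from this share. In all, 8 windows of 6 of the 10 genes were used. Windows of these genes on a chromosome that was set aside were left out, while the shares over all windows left out no chromosome. Tgfb2 had CAGAC at 221 and 204 bases and Tgfbr2 at 160 bases before the start, Tgfb1 had 6 GC boxes and Smad3 had 2. The windows of Tgfb1 and Smad3 held neither CAGAC nor GTCTG.

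Tgfbr2, the type II receptor that binds the ligand first, divided by probe set. The brightest, 1426397_PM_at, had 8.21, 8.26 and 8.23 on the MA arrays, against 8.40, 8.44 and 8.44 on the control arrays. The groups were apart, and the fall was 0.19 (standard error 0.024, 95% interval -0.25 to -0.14, adjusted p = 3.22e-04) or 1.14-fold. In contrast, 1425444_PM_a_at rose, with 5.07, 5.09 and 5.08 on the MA arrays, against 5.01, 4.99 and 5.04 on the control arrays. That rise of 0.07 (95% interval 0.01 to 0.12, adjusted p = 0.0465) lies just inside the threshold and was lost in 8 of 14 alternative settings, among them those without MA array 1, 2 or 3 or control array 1 or 2 (adjusted p = 0.0643 to 0.142). The remaining probe set, 1422019_PM_at, was under background and did not pass (difference 0.03, adjusted p = 0.364). Tgfbr3, or betaglycan, the co-receptor that presents ligand to the type II receptor, had 9.47, 9.48 and 9.47 on the MA arrays, against 9.54, 9.57 and 9.55 on the control arrays at 1433795_PM_at. It fell by 0.08 (95% interval -0.13 to -0.03, adjusted p = 0.0162), which is 1.06-fold, with no overlap. Leaving out MA array 3 or control array 2 took this call away (adjusted p = 0.0504 and 0.0588). Its other probe set, 1425620_PM_at, showed a difference of 0.00 (95% interval -0.08 to 0.08, adjusted p = 0.998).

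Both receptor-regulated transducers fell at their brightest probe set. Smad3 had 9.61, 9.60 and 9.63 on the MA arrays, against 9.74, 9.76 and 9.77 on the control arrays at 1454960_PM_at. The fall of 0.15 (standard error 0.022, 95% interval -0.20 to -0.10, adjusted p = 8.43e-04) is 1.11-fold, and the groups did not overlap. Its 1450472_PM_s_at also fell, by 0.10 (adjusted p = 0.048, and 0.112 to 0.146 without MA array 1 or 3 or control array 2 or 3), but MA array 2 at 6.05 lay above control array 1 at 6.04 there. The third, 1450471_PM_at, did not pass, with a difference of 0.05 (95% interval -0.04 to 0.14, adjusted p = 0.313). Smad2 had 6.76, 6.75 and 6.74 on the MA arrays, against 6.86, 6.87 and 6.90 on the control arrays at 1420634_PM_a_at. It fell by 0.12 (standard error 0.022, 95% interval -0.17 to -0.07, adjusted p = 0.00217), which is 1.09-fold. At 1442062_PM_at the MA arrays had 5.55, 5.48 and 5.39 and the control arrays 5.35, 5.41 and 5.39, which overlapped, and the difference of 0.09 did not pass (adjusted p = 0.0927).

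Skil, which codes for SnoN, a repressor of SMAD complexes that TGF-β both degrades and induces, had the second largest fall. It had 8.78, 8.79 and 8.79 on the MA arrays, against 9.17, 9.19 and 9.21 on the control arrays. The MA arrays agreed to an SD of 0.007 and the control arrays to one of 0.018, with no overlap. It fell by 0.40 (standard error 0.021, 95% interval -0.45 to -0.35, adjusted p = 2.32e-06) or 1.32-fold. Skil and Ltbp1 were the genes of the 10 whose change was larger than that of every hybridization control, and theirs was in the opposite direction.

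**Figure D2:**
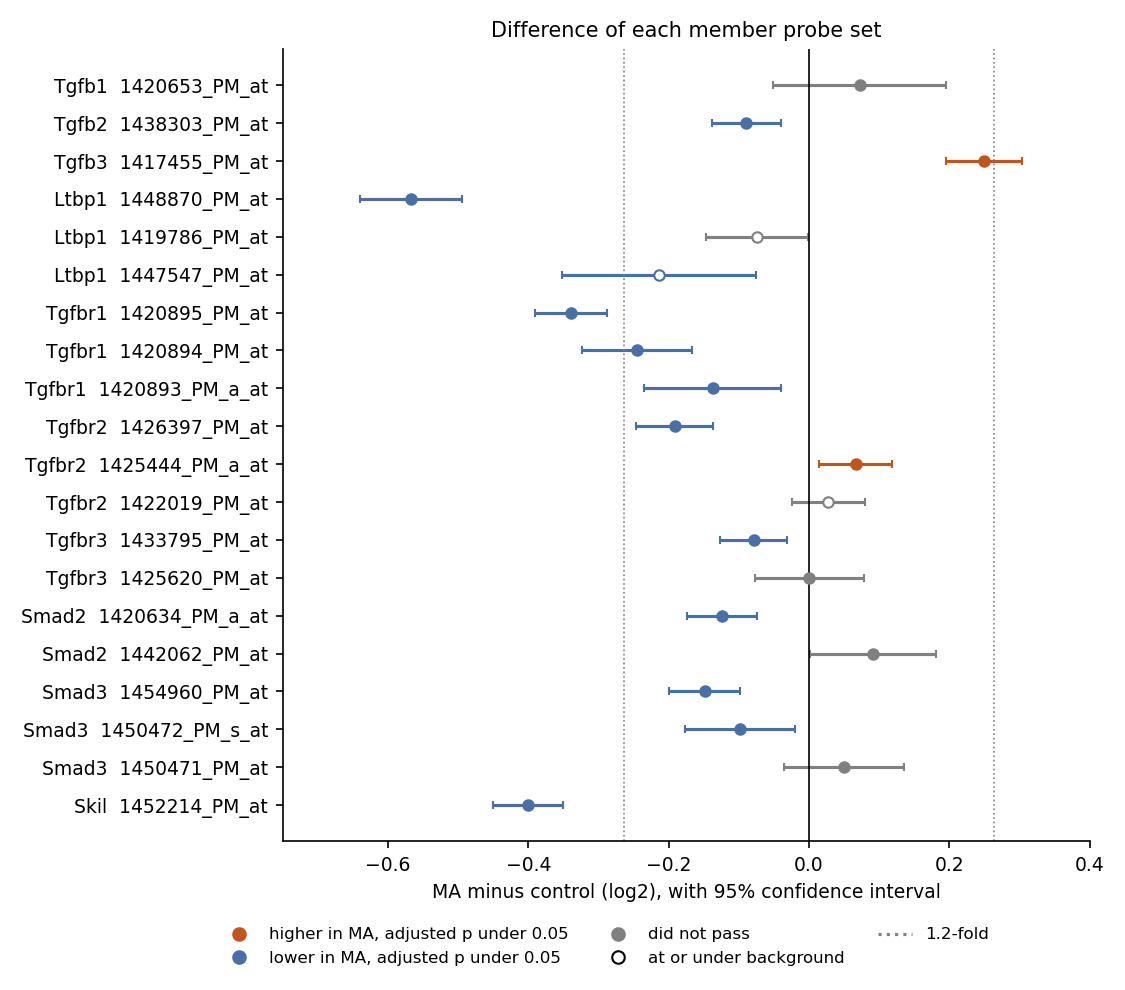
Difference in log2 RMA value, MA minus control (x axis), with its 95% confidence interval, for each of the 20 probe sets (y axis). Filled orange points are higher and blue points lower in MA at an adjusted p under 0.05, grey points did not pass, open points were at or under background, and the dotted lines mark 1.2-fold. Tgfb3 and 1 probe set of Tgfbr2 lie to the right, and Ltbp1, Skil and Tgfbr1 extend past the left dotted line.

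The probe sets of a pair were also set against each other within each array, for 6 pairs chosen after their values were seen. The difference Tgfb3 minus Tgfb2 was 4.33 to 4.34 on the MA arrays and 3.96 to 4.02 on the control arrays, a shift of 0.34. Tgfbr1 minus Tgfbr2 was 2.16 to 2.18 on the MA arrays and 2.30 to 2.35 on the control arrays, a shift of -0.15. In both there was no overlap between groups (exact permutation test, two-sided, p = 0.1, the lowest that 3 arrays against 3 can give, 0.12 after Benjamini-Hochberg adjustment over the 6 pairs). These pairs were picked for their unequal changes, so the lack of overlap is a description, and no adjusted p could pass 0.05. Smad3 minus Smad2 shifted by -0.02, with overlap between the groups (exact permutation test, p = 0.2, adjusted p = 0.2). Within genes, the brighter minus the dimmer probe set shifted by -0.26 for Tgfbr2, -0.21 for Smad2 and -0.20 for Smad3 without overlap (exact permutation test, p = 0.1 each, adjusted p = 0.12), which describes pairs picked in the same way.

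**Figure D3:**
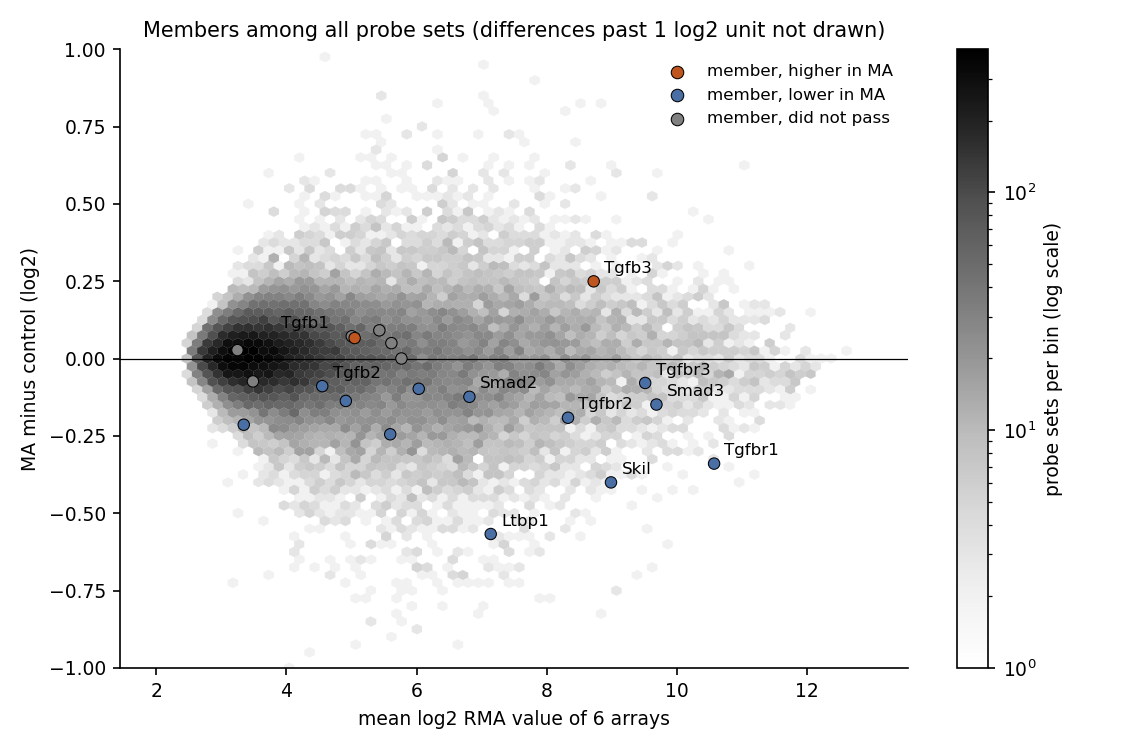
Difference MA minus control (y axis, log2) against the mean log2 RMA value of the 6 arrays (x axis) for all 45037 probe sets in grey bins, darker for more probe sets, with the 20 probe sets of the 10 genes as points. Each gene is named at its brightest probe set. Ltbp1, Skil and Tgfbr1 lie below the centre of the grey cloud and Tgfb3 above it.

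The genes around these 10 moved in both directions. Among all genes, by the brightest probe set, 47.8% were called, 24.7% higher and 23% lower, with a median difference of 0.006. Of 19 measured genes for the release and presentation of TGF-β, 10 rose, 4 fell and 5 did not pass, with a median of 0.12. Fmod, or fibromodulin, a matrix proteoglycan that binds TGF-β, rose most, to 8.31 ± 0.029 in the MA group, against 7.70 ± 0.027 in the control group (SD, n = 3 each, difference 0.61, adjusted p = 5.57e-07). Bgn, or biglycan, a related proteoglycan, rose by 0.23 (adjusted p = 8.85e-05), and Dcn, or decorin, the third of that family, had 11.02 in the MA group, against 11.06 in the control group and did not pass (adjusted p = 0.128). Ltbp3, a relative of Ltbp1 named after its values were seen, did not pass where brightest (difference -0.06, adjusted p = 0.0703). However, 2 of the 3 probe sets of Ltbp3 rose, with differences up to 0.80. Of the integrin subunits that can release latent TGF-β, Itgav fell by 0.16 (adjusted p = 4.46e-04) and Itgb5 by 0.21 (adjusted p = 8.62e-05). Only 1 of the 5 Itgav probe sets was called, while both of Itgb5 fell. Other subunits of this kind, named after their values were seen, went the other way: Itgb6 rose by 0.27 (adjusted p = 0.0034) with both probe sets higher, and Itgb3 by 0.13 (adjusted p = 0.0122) with 1 of 2 called. Itgb1 had 9.59 in the MA group, against 9.54 in the control group and did not pass at its brightest probe set (adjusted p = 0.0721), although 3 of its 5 probe sets rose. Nrros, also named after its values were seen, had the largest fall of this list. It had 4.04 in the MA group, against 4.57 in the control group (difference -0.53, adjusted p = 6.9e-06), close to background.

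Of 26 measured SMADs, SMAD co-regulators and turnover genes, 9 rose, 9 fell and 8 did not pass, with a median of -0.004. Wwp1 and Smurf2, ubiquitin ligases that mark SMADs and receptors for degradation, were higher. Wwp1 rose to 8.89 ± 0.002 in the MA group, against 8.34 ± 0.011 in the control group (SD, n = 3 each, difference 0.56, adjusted p = 2.63e-07), with 3 of its 4 probe sets higher. Smurf2 rose by 0.24 (adjusted p = 9.83e-05), and all 3 of its probe sets were higher, by 0.20 to 0.46. Smurf2 is also a gene that the study singled out on these arrays. Nedd4l, a related ligase named after its values were seen, fell by 0.07 where brightest (adjusted p = 0.0431), with 1 of its 4 probe sets higher and 2 lower. Crebbp, a histone acetyltransferase that SMAD3 recruits, fell by 0.38 (adjusted p = 6.02e-06) and Fkbp1a, which binds and restrains the type I receptor, by 0.15 (adjusted p = 6.45e-04). Hipk2, a kinase that acts with SMAD co-repressors, rose by 0.21 (adjusted p = 1.1e-04) with 7 of 8 probe sets higher. Named after their values were seen, Smad4, the common partner, fell by 0.20 with 3 of 3 probe sets lower (adjusted p = 1.41e-04), Ski, the closest relative of Skil, fell by 0.13 with 1 of 2 probe sets called (adjusted p = 0.0187), and the inhibitory Smad7 had 5.89 in the MA group, against 5.90 in the control group (adjusted p = 0.867).

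Of 15 measured genes of the SMAD-independent arms, 4 rose, 4 fell and 7 did not pass, with a median of 0.04. Rock1, a kinase downstream of RhoA, fell by 0.52 (adjusted p = 1.92e-06) with 4 of 4 probe sets lower, and Rhoa itself rose by 0.07 (adjusted p = 0.0356). Map2k4, a kinase that activates JNK and p38, rose by 0.28 (adjusted p = 2.69e-05), and Mapk14, p38 alpha, was higher by 0.20 where brightest (adjusted p = 3.87e-04). The 6 probe sets of Mapk14 did not agree: 3 rose, 1 fell and they ran between -0.13 and 0.21. Xiap, an adaptor to the kinase TAK1, fell by 0.08 where brightest (adjusted p = 0.0186). Only 3 of its 7 probe sets were called, all lower, and they ran between -0.22 and 0.08. Tab2, another adaptor of TAK1, had 9.16 in the MA group, against 9.10 in the control group and did not pass at its brightest probe set (adjusted p = 0.0591). The other probe set of Tab2 fell, by 0.24. Mapk8, a JNK gene named after its values were seen, did not pass where brightest (difference 0.01, adjusted p = 0.716). However, 2 of its 4 probe sets fell, and its differences ran between -0.73 and 0.01.

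The activin and myostatin branch, which shares SMAD2 and SMAD3 and restrains muscle growth, had 4 genes higher, 2 lower and 9 that did not pass among 15 measured, with a median of 0.008. The 40% called is below the 47.8% of all genes. Fstl1, a secreted follistatin-like protein, rose by 0.43 (adjusted p = 6.52e-06) and Acvr1b, the type I activin receptor, by 0.24 (adjusted p = 2.11e-04), though only 1 of its 2 probe sets was called. Acvr2a, a type II receptor for activin and myostatin, fell by 0.20 (adjusted p = 2.02e-04), and Fst, or follistatin, which binds both ligands, fell by 0.10 (adjusted p = 0.00805). Mstn and Inhbb, among others, were not analysed here.

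Of 27 measured genes that TGF-β is known to induce, 11 rose, 11 fell and 5 did not pass, and their median difference was -0.0006. Of these pathway lists it had the widest range, from -1.48 to 2.07, with 10 genes past 1.2-fold upward and 7 downward. The 3 that rose most, Postn, Timp1 and Fn1, code for secreted proteins. Postn, or periostin, rose to 9.56 ± 0.020 in the MA group, against 7.49 ± 0.048 in the control group (SD, n = 3 each, 4.20-fold, adjusted p = 1.58e-09). Timp1, an inhibitor of matrix metalloproteinases, rose to 8.34 in the MA group, against 6.41 in the control group (adjusted p = 2.17e-09), and Fn1, or fibronectin, by 1.13 (adjusted p = 8.46e-09). Col3a1, a chain of collagen III, rose by 0.57 (adjusted p = 3.44e-07). Klf10, a transcription factor also known as the TGF-β-inducible early gene, fell to 8.09 ± 0.012 in the MA group, against 9.22 ± 0.009 in the control group (SD, n = 3 each, 2.19-fold, adjusted p = 5.87e-09). Cdkn1a, the cell cycle inhibitor p21, rose by 0.06 (adjusted p = 0.0414). Angptl4, Junb, Bhlhe40 and Ccn2 were named after their values were seen. Angptl4 fell by 1.48 where brightest (adjusted p = 3.99e-09), while its other probe set had a difference of -0.04 and did not pass. Junb fell by 0.74 (adjusted p = 2.28e-05) and Bhlhe40 by 0.46 (adjusted p = 8.17e-07), while Ccn2, connective tissue growth factor, rose by 0.96 (adjusted p = 2.87e-07). Genes known as TGF-β targets thus moved in both directions, in equal number by the adjusted p, and 81.5% were called, against 47.8% of all genes. Their mean log2 value was 6.77 to 6.78 on the MA arrays and 6.64 to 6.66 on the control arrays. Their linear sum was 9279 to 9375 on the MA arrays and 7730 to 7822 on the control arrays.

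**Figure D4:**
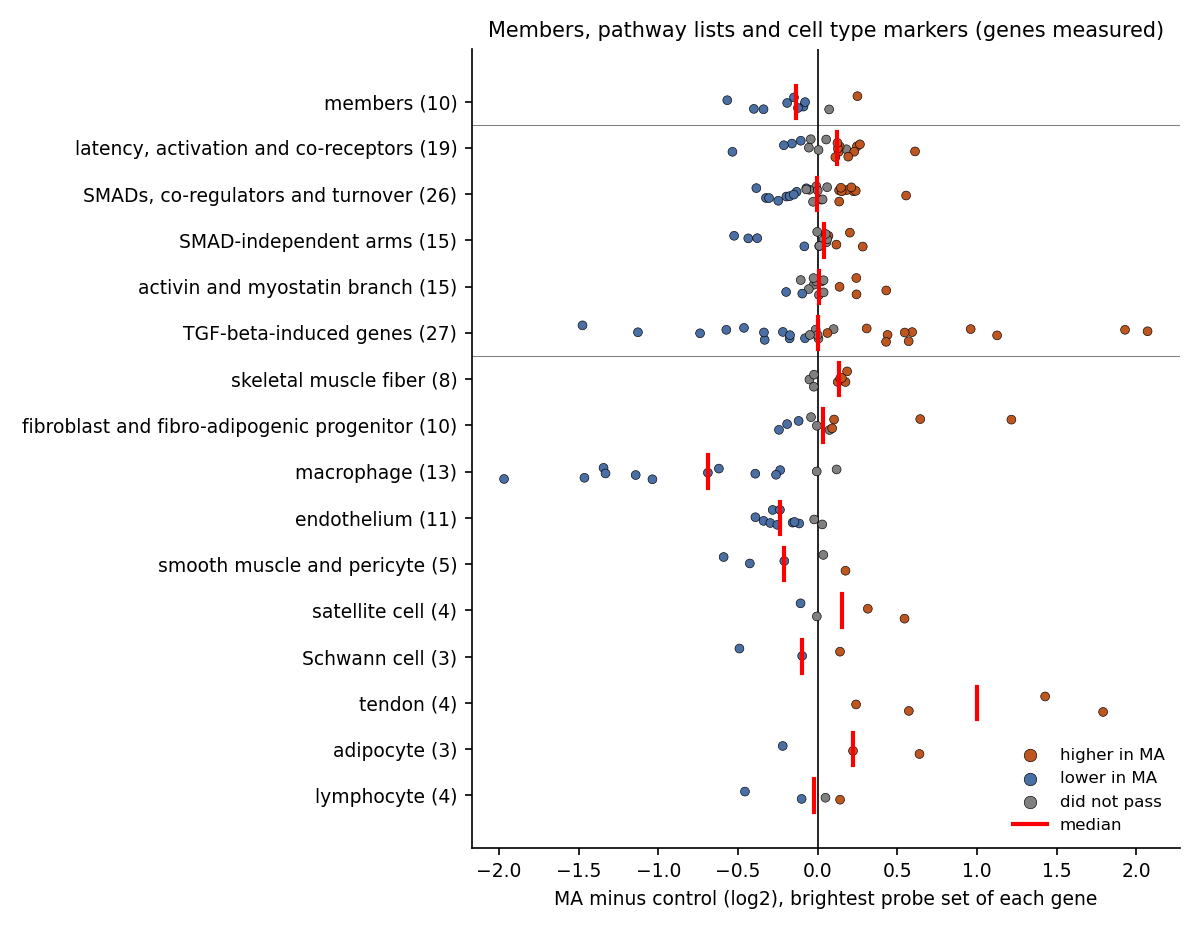
Difference MA minus control (x axis, log2) of each measured gene by its brightest probe set, for the 10 genes, the pathway lists and the marker lists of cell types (y axis, number of measured genes in parentheses), with the median in red. The TGF-β-induced genes lie on both sides of 0, from -1.48 to 2.07, and the macrophage markers have the lowest median.

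The muscle holds several cell types that express these genes, and their marker lists moved too. In RNA of whole muscle, fewer cells of a type and less RNA per cell cannot be told apart. Of 13 macrophage markers, 11 fell, none rose and 2 did not pass, and their mean log2 value was 5.87 to 5.90 on the MA arrays and 6.67 to 6.70 on the control arrays. Their signals on the linear scale summed to 1873 to 1920 on the MA arrays and 3247 to 3309 on the control arrays, with 12 of the 13 above background. Of 11 endothelial markers, 9 fell, none rose and 2 did not pass, with a mean of 5.05 to 5.10 on the MA arrays and 5.24 to 5.31 on the control arrays, and 10 of the 11 were above background. Their linear sum was 452.2 to 467.6 on the MA arrays and 524.2 to 542.6 on the control arrays. Macrophages and endothelium are known to express Tgfbr1 and Tgfbr2, and the part of these markers in the falls of both receptors, Ltbp1 and Skil was not tested.

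Markers of smooth muscle and pericytes had 3 of 5 lower and 1 higher, with a median of -0.21. In contrast, 4 of 4 tendon markers rose, and their mean was 6.23 to 6.26 on the MA arrays and 5.24 to 5.25 on the control arrays, with 3 of the 4 above background. Their linear sum was 449.3 to 453.2 on the MA arrays and 186.1 to 189.1 on the control arrays. Tgfb3, Fmod and Postn are known to be expressed in tendon, and the part of the tendon markers in their rise was not tested. Of 10 fibroblast and progenitor markers, 4 rose, 3 fell and 3 did not pass, with a median of 0.03. Pdgfra, the defining marker of that list, had 3.93 in the MA group, against 3.97 in the control group, close to background, and did not pass. Mfap5, a microfibril protein, rose by 1.22 (adjusted p = 3.21e-08) and Lum, the matrix proteoglycan lumican, by 0.64 (adjusted p = 1.15e-07). The other rises were smaller, 0.10 for Pi16 and 0.09 for Smoc2, while Clec3b fell by 0.24, Gsn by 0.19 and Dpt by 0.12. The list thus divided, and the part of its markers in the rise of Postn, Fn1 and Col3a1 was not tested. Of 8 fiber markers, 5 rose and 3 did not pass, by at most 0.18. Satellite cell markers had 2 of 4 higher and 1 lower, Schwann cell markers 1 of 3 higher and 2 lower, adipocyte markers 2 of 3 higher and 1 lower, and lymphocyte markers 1 of 4 higher and 2 lower.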

How the data were processed

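Total RNA of the gastrocnemius was labelled with a 3' IVT kit and hybridized to mouse arrays of the Affymetrix GeneAtlas system. The series' design text gives a human array, but the probe sets carry the names of the mouse array that the methods state. The authors applied RMA in Affymetrix Expression Console (version not given in the sources used here), and the deposited log2 values were used without further normalization.

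Differences were fitted in R 4.3.3 with limma 3.58.1 (lmFit and eBayes, no covariate) over 45037 probe sets, after 104 array controls were set aside, and adjusted by the Benjamini-Hochberg method. Of these probe sets, 28898 named 1 gene, 551 several and 15588 none. The steps were tested on simulated data. A gene in a list is its brightest probe set. All members were named, and of each pathway list the 4 called genes with the largest difference among those above the highest nonspecific control and the 2 brightest genes; others are marked in the text. The members and lists were chosen with earlier results of these data known. The alternatives were the methods' one-way test and thresholds, eBayes with a trend or robust, quantile normalization again, median centring, filters on dim probe sets, array weights, a replicate block, the mean of a gene's probe sets and leaving out each array. Promoter windows are from RefSeq (GRCm38.p6).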

Additional observations from a re-analysis of the deposited data

How the results depend on the processing

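No called difference of the 20 probe sets reversed under an alternative: fold thresholds apart, of 284 comparisons over 15 settings, 256 kept their side of the threshold, 26 lost it, 2 gained it and 0 reversed. Of the 14 called probe sets, 9 kept the call in every setting in which they were tested, among them the brightest of Tgfb2, Tgfb3, Ltbp1, Tgfbr1, Tgfbr2, Smad2, Smad3 and Skil. Tgfb2, the brightest of Smad2 and Tgfbr1 1420894_PM_at were not tested under the filter at the highest nonspecific control. The calls gained were those of Ltbp1 1419786_PM_at with the replicate block (adjusted p = 0.0496) and of Smad2 1442062_PM_at without MA replicate 3 (adjusted p = 0.0178). The cause was not tested.

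The counts depend on the fold asked for. With a fold over 1.2 asked for as well, either by the methods' one-way test with no adjustment or by the adjusted p, 0 probe sets of the 10 genes were higher and 3 lower. At these thresholds the release and presentation genes gave 2 higher and 1 lower, the SMADs and co-regulators 1 higher and 3 lower, the SMAD-independent arms 1 higher and 3 lower, the activin and myostatin branch 1 higher and 0 lower, and the induced genes 10 higher and 7 lower. With a difference over that of the largest hybridization control, 0 probe sets of the 10 genes were higher and 2 lower, and the lists gave 1 higher and 1 lower, 1 higher and 1 lower, 0 higher and 3 lower, 1 higher and 0 lower, and 9 higher and 5 lower, in the same order.

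Among the 6496 probe sets above the highest nonspecific control, at 7.24, the 10 genes had 1 higher and 6 lower, fewer because fewer were tested. Each of their probe sets tested under this filter was called. The share called among all 6496 is not given here, so the counts under this filter are a description. Brighter probe sets were called more often: in the main fit 54.7% of those above 3.90, against 42.9% of all. The release and presentation genes had 3 higher and 4 lower, the SMADs and co-regulators 7 higher and 4 lower, the independent arms 5 higher and 2 lower, the activin branch 2 higher and 2 lower and the induced genes 7 higher and 5 lower. The filter at 3.90, chosen after seeing the data, left 2 higher and 11 lower. The count of higher probe sets of the 10 genes was 1 with a trend in eBayes, with median centring and with the replicate block, and 1 to 2 when single arrays were left out, since the rise of Tgfbr2 1425444_PM_a_at was lost.

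Same-numbered arrays deviated together with correlations of 0.19, 0.04 and 0.14, so the numbers were not taken to pair the arrays. The replicate block called 19844 probe sets, against 19331 without it. With 3 arrays a group, the number of arrays limits the precision.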
